A study of Homo sapiens with 4 samples.

Results

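The ZNF genes of chromosome 19 were examined for m6A in OE-19 cells, an established cell line of adenocarcinoma of the esophagogastric junction (AEG). Members were all protein-coding genes of GENCODE version 44 on chromosome 19 of hg38 whose symbol is ZNF, digits and optional letters. The rule gave 246 of 20046 protein-coding genes, against 263 genes with such a symbol on other chromosomes and 19537 other protein-coding genes. The data came from meRIP-seq, in which RNA fragments carrying N6-methyladenosine are captured with an anti-m6A antibody and sequenced, and their local excess is recorded as a peak. Samples numbered 4, all from OE-19 cells grown in RPMI medium with no treatment given, namely 2 m6A immunoprecipitations and 2 inputs made with no antibody. Peaks had been called in either immunoprecipitation separately, and no peak list of the inputs was analysed here, so the replicates were set side by side and no test between groups was possible. The study calls its replicates biological, without saying whether they were separate cultures. The lists hold 24607 peaks in replicate 1 and 19318 in replicate 2. With no read numbers in the lists, sequencing depth is unknown.

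Most ZNF proteins of chromosome 19 are KRAB zinc finger proteins. In these, a short N-terminal KRAB domain recruits co-repressors to chromatin, and a tandem array of C2H2 zinc fingers, each held by 2 cysteines and 2 histidines around a zinc ion, reads DNA. The genes arose by repeated duplication and lie in clusters, and many of their proteins silence retrotransposons. The finger array is usually encoded without interruption in a long last exon, which also carries the stop codon and the 3′ UTR, and neighbouring fingers are joined by a short linker of the residues TGEKP. m6A is set on the adenosine of short consensus sequences, of which GGAC is the best known, and is common in long exons and near stop codons.

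The members fit that plan in their fingers and long last exons, while KRAB domains were not counted. At least 1 finger was found in the translated coding sequence of all 246, and 3108 fingers in total, with a median of 12 per gene and a highest number of 36 in ZNF208. In 238 members every finger lay in the last exon. The last exon had a median length of 3246 nt, against 1225 nt in other protein-coding genes, and made up a median of 87.6% of the reference transcript, the one with the longest coding sequence (CDS).

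To show where the strongest peaks lie, the GGAC nearest to the replicate 1 summit is given in its RNA-strand context, with GGAC in capitals, for members among the 12 with the strongest peak found in both replicates. The 6 shown are those with the tetramer within 50 nt of the summit and in the last exon before or in the finger array, and the sequences are read from hg38 and GENCODE transcripts.
ZNF121, chr19:9566991-9567015, minus strand: aaaatacaggGGACacttatgactg
ZNF274, chr19:58212919-58212943, plus strand: cagcacctgaGGACtcacactggcg
ZNF562, chr19:9653702-9653726, minus strand: agcctctattGGACaagaactttcc
ZNF17, chr19:57420007-57420031, plus strand: agccacacagGGACactcatggtgt
ZNF264, chr19:57211572-57211596, plus strand: gatggtttagGGACagctgatggtg
ZNF566, chr19:36449811-36449835, minus strand: ctctcaggggGGACatttcaatcaa
The tetramer stood 32 nt before the summit in ZNF121, 12 nt after it in ZNF274, 25 nt after it in ZNF562 and 3 nt after it in ZNF17.

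For contrast, 4 others of the 12, with their summit in the finger array, had no GGAC within 50 nt of it. Their nearest match to the wider consensus is shown, with its 5 bases in capitals.
ZNF561, chr19:9610671-9610695, minus strand: tcaacttactGAACAtgtaagaact
ZNF799, chr19:12390571-12390595, minus strand: ttccttgcatAGACAtaaaaagact
ZNF417, chr19:57909679-57909703, minus strand: tagagaagacAGACAgtgaaactat
ZNF443, chr19:12430236-12430260, minus strand: cactggaaaaAAACTcacactggag

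The codons of the linker hold another short sequence, AAACC, which fits the wider m6A consensus. They are shown for 2 linkers of ZNF850, which start 126 nt before and 42 nt after the replicate 1 summit. ZNF850 is a member with 29 fingers, and AAACC returns in linkers along its array. AAACC, in capitals, falls on the codons of the lysine and the proline of TGEKP.
ZNF850 linker, chr19:36749189-36749215, minus strand: caaattcacactggtgagAAACCttat
ZNF850 linker, chr19:36749021-36749047, minus strand: agaattcacactggtgagAAACCctat
Of 1443 TGEKP linkers in the members, 77.3% held AAACC in the 27 bases shown here (95% Wilson confidence interval 75.04% to 79.4%), whereas 5.27% held GGAC.

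First, the share of members with m6A was counted. Replicate 1 placed a peak summit in an exon of 137 members (55.7%, interval 49.4% to 61.8%) and replicate 2 in an exon of 126 (51.2%, 45.0% to 57.4%). The intervals here and below are 95% Wilson intervals and cover counting error only. Peaks in both replicates were found for 124 members (50.4%, 44.2% to 56.6%), and a peak in either for 139 (56.5%). Over all protein-coding genes the shares were 42.4% in replicate 1, 34.1% in replicate 2, 33.4% in both and 43.1% in either. A member counted in both even where its peaks lay at different places. Of all members, 118 (48.0%) had peaks of replicates 1 and 2 that were each other's largest overlap. ZNF genes on other chromosomes stood higher than the members, with 71.1% (65.4% to 76.2%) in both replicates. No expression values were at hand, so a gene without a peak and a gene with too little RNA to give one cannot be told apart.

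Exonic length bears on the chance of a peak, so genes of like length were set side by side. Weighted to the members' lengths, other protein-coding genes had a peak in both replicates in 38.2%, which is 12.2 percentage points below the members and outside the members' interval. In replicate 1 alone the gap was 7.38 points and the like-length share, 48.3%, lay just under the interval. When genes were matched on the length of the last exon instead, the gap fell to 6.62 points in both replicates, 4.02 in replicate 1 and 6.53 in replicate 2, and the like-length share of replicate 1, 51.7%, lay inside the members' interval. By exonic length, members stood above other genes in each bin up to 8 kb. The shortest bin, under 2 kb, had 2 of 6 members with a peak in both replicates (33.3%, 9.68% to 70.0%), against 10.4% of other genes. Of the 71 members with 4 to 6 kb of exons, 60.6% were marked in both replicates, against 37.0% of other genes, and of the 60 members with 2 to 4 kb, 43.3% against 26.1%. At 8 kb or more it was 15 of 44 members (34.1%, 21.9% to 48.9%), against 48.5% of other genes, inside the members' interval, and 77.9% of ZNF genes on other chromosomes. Of these 44, 9 lay in the cluster from ZNF101 to ZNF254 described below. There 1 had a peak in both replicates, against 14 of 35 elsewhere.

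**Figure D1:**
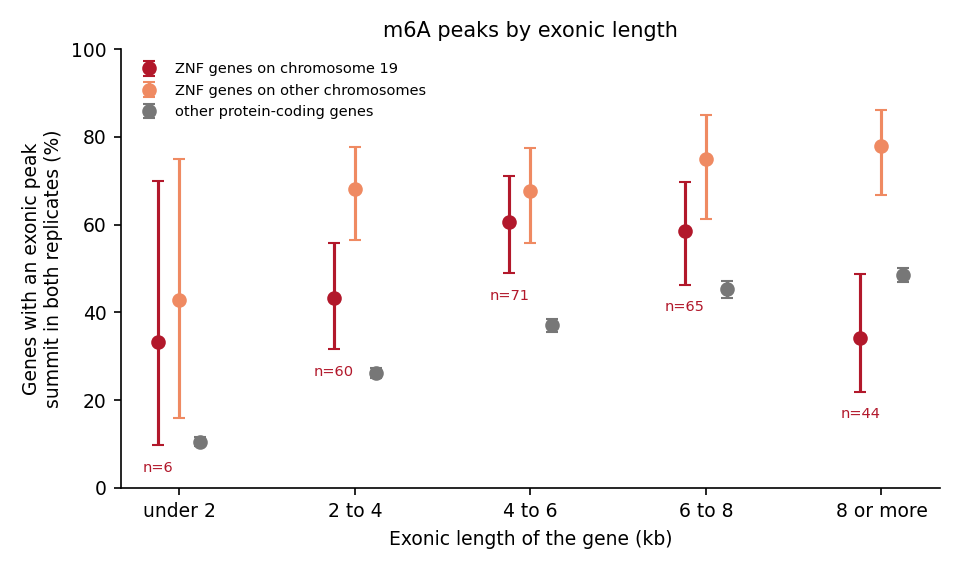
Share of genes with an exonic peak summit in both replicates (vertical axis, %) by exonic length of the gene (horizontal axis, kb), for the members (n given under each point), ZNF genes on other chromosomes and other protein-coding genes. Bars are 95% Wilson intervals. The members stand above other genes up to 8 kb and below them at 8 kb or more, where the members' interval includes the share of other genes.

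Members resemble each other in sequence, so a read may map to several of them, and this moved with the result. Every 31-base word within 50 nt of the summit occurred once in the genome for 63.2% of the members' summits in replicate 1 (57.5% to 68.5%) and 64.2% in replicate 2 (57.6% to 70.3%), against 90.1% and 89.8% in other protein-coding genes. When only summits with such unique windows were kept in all genes, 85 members (34.6%, 28.9% to 40.7%) had a peak in both replicates, against 34.7% of other genes of like length. With unique windows alone, then, no excess over genes of like length was left in both replicates. The filter removed more of the members' summits than of other genes' summits, while genes stayed matched on their full exonic length. A larger fall in the members' share was thus built in, and the comparison cannot tell whether the summits left out are real. The words are also shorter than the study's paired-end reads, so a repeated word need not make a read ambiguous. How the mapping treated reads that fit several places is not stated, and its part in the result was not tested.

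Next, the members were followed along the chromosome. Neighbours more than 1 Mb apart split them into 16 clusters, of which 6 held 20 members or more. In the cluster from ZNF101 to ZNF254 (chr19:19668796-24129968) 4 of 37 members had a peak in both replicates (10.8%, 4.29% to 24.7%), against 120 of 209 elsewhere (57.4%, 50.6% to 63.9%). That cluster was singled out after its values were seen. Its 4 genes were ZNF101, ZNF14, ZNF714 and ZNF254, and ZNF431 and ZNF708 had a peak in replicate 1 alone. In ZNF714 the peaks of the replicates did not match as a pair. Fold enrichment, the signal at the summit over the caller's local background, reached 12.4 in replicate 1 and 7.70 in replicate 2 in ZNF101, and 9.21 and 9.12 in ZNF254. The members of the cluster were no shorter than those elsewhere, with a median exonic length of 6088 nt against 5431 nt. Their last exons were less unique, with a median of 71.9% of 31-base words found once in the genome against 90.2%. Within one range of uniqueness, 60% to under 80%, 3 of 25 members in the cluster and 25 of 40 outside it had a peak in both replicates. Whether these genes are silent in OE-19 cells was not tested. At the other end of the chromosome, 38 of the 59 members from ZNF628 to ZNF446 had a peak in both replicates (64.4%, 51.7% to 75.4%). Without the cluster from ZNF101 to ZNF254, the gap to other genes of like length was 19.5 points. That cluster had the lowest share among those with 20 members or more, so its omission had to raise the members' share.

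**Figure D2:**
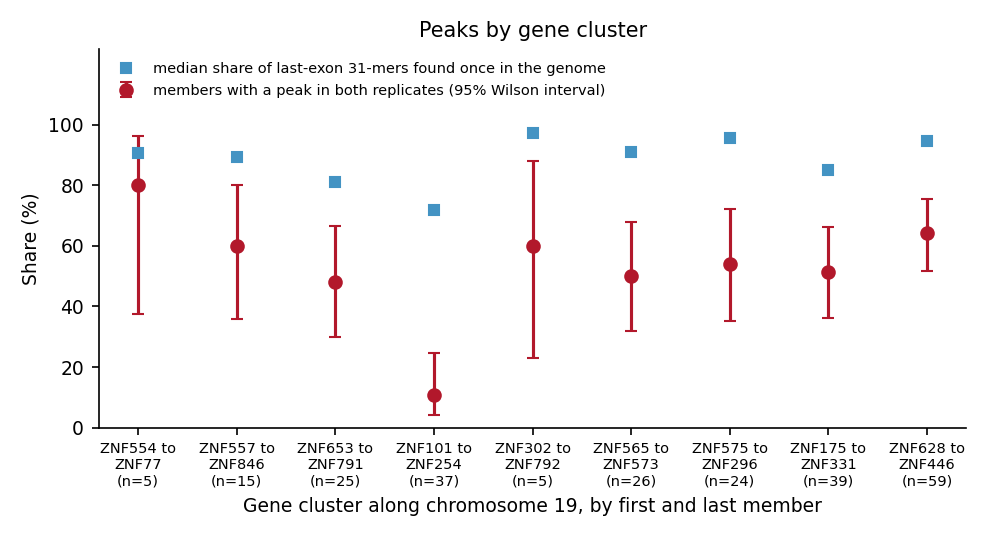
Share of members with a peak in both replicates (circles, with 95% Wilson intervals) and the median share of 31-base words of the last exon found once in the genome (squares), both in %, for each cluster of 5 or more members along chromosome 19. The cluster from ZNF101 to ZNF254 is lowest in both, at 10.8% and 71.9%.

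Peaks were then placed along the transcripts. Of 286 summits of replicate 1 on reference transcripts, 261 (91.3%, 87.4% to 94.0%) lay in the last exon, where 85.3% of the length of these transcripts lies. In replicate 2 it was 199 of 210 (94.8%, 90.9% to 97.1%) against 86.1% of length. Other protein-coding genes had 49.6% and 58.6% of summits in the last exon, against 51.8% and 54.0% of length. ZNF genes on other chromosomes had 66.7% and 71.9%. The members' last-exon share was thus close to, though above, the share of length in that exon.

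Within the transcript the coding sequence took more summits than its length. CDS outside the 200 nt around the stop codon held 55.9% of summits in replicate 1 (50.1% to 61.6%) and 59.5% in replicate 2 (52.8% to 65.9%), against 42.7% and 42.8% of length. The window around the stop codon held 18.9% and 16.2%, against 10.8% and 11.2% of length. In other protein-coding genes that window held 24.9% and 27.8%, above the members' intervals in both replicates. In ZNF genes on other chromosomes it held 15.2% and 17.4%, inside those intervals, and their CDS held 63.1% and 61.4%. The rest of the 3′ UTR held 20.3% and 21.0% of the members' summits, against 38.7% and 38.4% of length. The 5′ UTR held 14 summits in replicate 1 and 7 in replicate 2.

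The last exon was divided at its fingers. The stretch before the first finger held 54 of 260 summits in replicate 1 (20.8%, 16.3% to 26.1%), against 11.8% of the exon length. In replicate 2 it held 47 of 199 (23.6%, 18.3% to 29.98%), against 12.8% of length. The finger array held 44.2% in either replicate, against 35.3% and 34.6% of length. The 3′ UTR, stop codon region included, held 31.9% and 29.1%, against 50.8% and 50.5%. Relative to length, summits were thus 1.76 and 1.85 times as frequent before the array, 1.25 and 1.28 times in it, and 0.628 and 0.577 times in the 3′ UTR. Among last-exon CDS summits the array's share fell from 65.3% to 54.5% in replicate 1 and from 63.8% to 55.3% in replicate 2 when only unique windows were kept. Enrichment was similar in these parts, with overlapping quartiles and medians of 7.17, 7.36 and 6.49 before the array, in it and in the 3′ UTR in replicate 1, and 5.84, 6.04 and 5.996 in replicate 2.

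**Figure D3:**
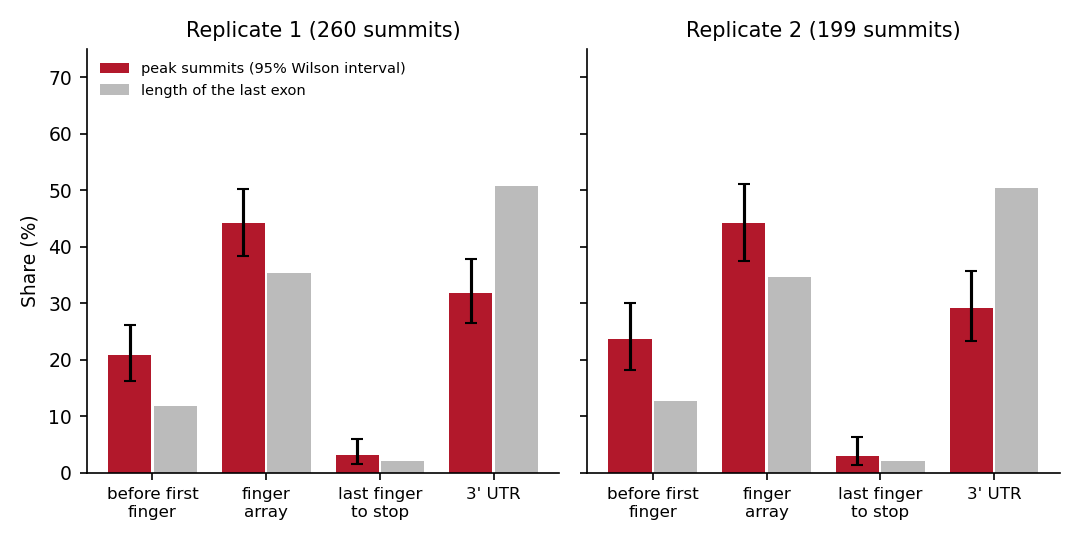
Share of last-exon peak summits of the members (red bars, with 95% Wilson intervals) and of the length of the same exons (grey bars), both in %, by part of the last exon, in each replicate. Summits exceed length before the first finger and in the array, and fall below it in the 3′ UTR.

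Distance from the last exon junction gave the same picture in finer steps. In each replicate 2 of the members' summits fell in the first 100 nt of the last exon, or 0.15 and 0.17 per kb of exon. From 100 to 250 nt the density was 2.16 and 1.67 per kb. It was 0.37 and 0.24 per kb from 750 to 1000 nt, and returned to 0.790 and 0.574 per kb from 1000 to 2000 nt, beyond which it was 0.189 and 0.169. Other protein-coding genes were denser near the junction (2.89 and 2.60 per kb from 100 to 250 nt) and thinner from 1000 to 2000 nt (0.304 and 0.263). ZNF genes on other chromosomes had a profile like that of the members, with 0.546 and 0.433 per kb from 750 to 1000 nt and 0.544 and 0.556 from 1000 to 2000 nt. The median summit lay 370 nt and 376 nt from the junction in other protein-coding genes, 875.5 nt and 909 nt in ZNF genes on other chromosomes, and 1082 nt and 1063 nt in the members. The first finger begins at a median of 344 nt from the junction and the array spans a median of 1071 nt.

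**Figure D4:**
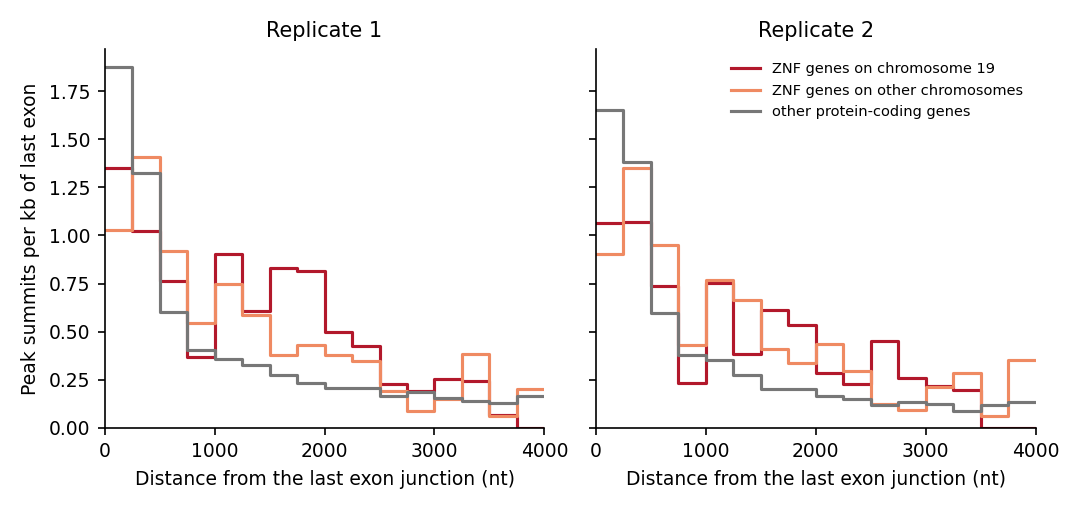
Peak summits per kb of last exon (vertical axis) by distance from the last exon junction (horizontal axis, nt, in steps of 250 nt) in each replicate, for the members, ZNF genes on other chromosomes and other protein-coding genes. The members dip at 750 to 1000 nt (0.37 and 0.24 per kb) and stay above other protein-coding genes from 1000 to 2000 nt, as do ZNF genes on other chromosomes.

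The transcript sequence within 50 nt of each summit was then searched, on the RNA strand only. GGAC was present at 97 of 286 summits in replicate 1 (33.9%, 28.7% to 39.6%) and 73 of 210 in replicate 2 (34.8%, 28.6% to 41.4%). Over all positions of the same transcripts 24.8% and 25.3% of such windows hold it. Other protein-coding genes had GGAC at 51.2% and 52.8% of summits, against 35.3% and 34.1% along their transcripts. ZNF genes on other chromosomes had it at 40.3% and 41.8%, against 28.7% and 28.8%. GGAC thus stood above its frequency along the transcripts in each set of genes. It differed between parts of the last exon. Before the first finger GGAC stood at 42.6% of summits (30.3% to 55.8%) in replicate 1 and 48.9% (35.3% to 62.8%) in replicate 2, whereas in the array it stood at 24.3% (17.4% to 32.9%) and 22.7% (15.2% to 32.5%). The intervals of these parts overlapped in replicate 1 but not in replicate 2. The array itself is poor in GGAC, with 1.61 per kb against 5.12 per kb in the other coding sequence of the members. That other sequence covers all exons and is not limited to the stretch before the first finger.

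The array is instead rich in AAACC, with 6.52 per kb against 3.20 per kb in the other coding sequence. AAACC was present at 29.7% of the members' summits in replicate 1 (24.7% to 35.3%) and 26.2% in replicate 2 (20.7% to 32.5%), against 26.1% and 25.6% along the transcripts. Both intervals include the frequency along the transcripts. The related AAACT was present at 18.2% (14.1% to 23.1%) and 20.5% (15.6% to 26.4%) of summits, against 11.7% and 11.6% along the transcripts. In other protein-coding genes AAACT was at 8.86% and 10.5% of summits, against 9.83% and 10.4%, and in ZNF genes on other chromosomes at 15.03% and 16.1%, against 11.6% and 11.7%. The members' summits also held GGACT (13.99% and 12.4%, against 8.81% and 8.72%), GAACT (16.1% and 13.8%, against 10.4% and 10.1%) and AGACT (14.3% and 16.7%, against 10.1% and 10.3%) above their frequency along the transcripts. For GGACT and GAACT in replicate 2 the intervals (8.59% to 17.5% and 9.79% to 19.1%) included that frequency. Summit windows were less GC-rich in the members, with a median of 43.6% in either replicate against 59.4% and 56.4% in other genes. ZNF genes on other chromosomes lay between, at 51.5% and 50.5%. A sequence match within 50 nt is a description and does not place the modified base.

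The strength of the members' peaks was compared next. The 296 member peaks of replicate 1 gave 301 values and the 215 of replicate 2 gave 220, since a peak in exons of more than 1 member counted for each. The median fold enrichment was 6.89 in replicate 1 (quartiles 5.12 and 9.42) and 5.88 in replicate 2 (4.68 and 7.77). Other protein-coding genes had medians of 5.13 and 4.67, and ZNF genes on other chromosomes 6.69 and 5.84, close to the members. Values ranged from 2.20 to 22.8 in replicate 1 and from 1.86 to 18.04 in replicate 2. The lists have backgrounds of their own, so ratios between the lists are given only as a description.

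Sharing between the lists was high from the side of the shorter list. Of the members' peaks, 193 of 296 in replicate 1 (65.2%, 59.6% to 70.4%) and 201 of 215 in replicate 2 (93.5%, 89.4% to 96.1%) overlapped a peak of the other replicate by at least 1 bp. In other protein-coding genes the shares were 60.2% and 96.0%. Peaks found in replicate 1 alone were weaker, with a median fold enrichment of 5.37 (quartiles 4.48 and 6.71) against 8.38 (6.06 and 11.0) for shared ones. The 14 peaks of replicate 2 alone had a median of 5.35 against 6.01.

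In 185 pairs each peak was the largest overlap of the other. Across these pairs log2 fold enrichment had a Pearson's r of 0.468 and a Spearman's rho of 0.456, against 0.709 and 0.695 across 10319 pairs in other protein-coding genes. These are correlations across peaks, which share libraries and are not replicates. The summits of a pair lay a median of 40 bp apart, against 26 bp in other genes, and 99 pairs had summits within 50 bp. Enrichment was higher in replicate 1 in 139 pairs, and the log2 ratio of replicate 1 to replicate 2 had a median of 0.40 (quartiles 0.00 and 0.80).

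**Figure D5:**
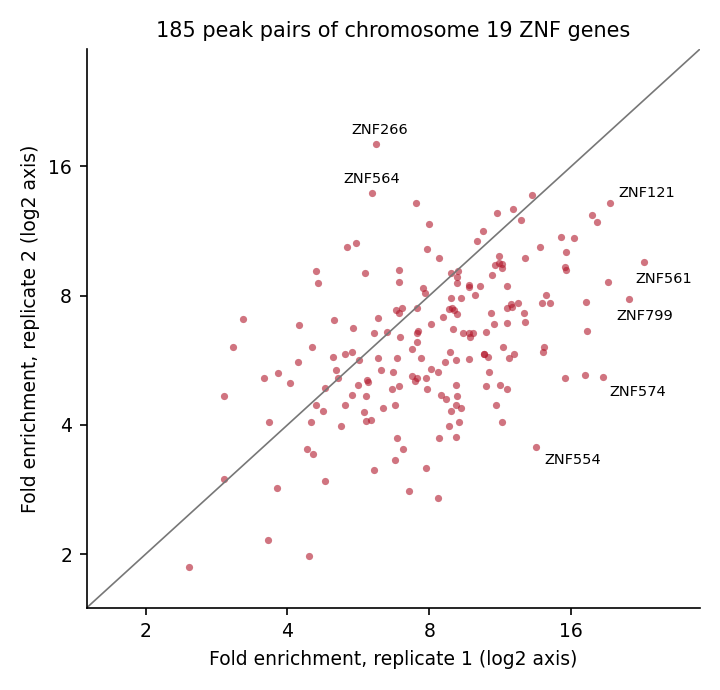
Fold enrichment in replicate 1 (horizontal axis) and replicate 2 (vertical axis), both on log2 axes, for the 185 pairs of member peaks matched by mutual largest overlap. The line marks equal values, and 139 pairs lie below it, higher in replicate 1.

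Shared peaks were ranked by the geometric mean of fold enrichment over both replicates. The strongest was that of ZNF121, 19.4-fold in replicate 1 and 13.2-fold in replicate 2. Its summits lay 138 and 141 nt into the last exon, before the first finger. ZNF562, ZNF264 and ZNF566 had theirs in the same stretch, at 18.2 and 11.9, 15.6 and 10.1, and 12.5 and 11.99. So the GGAC sequences given above for ZNF121, ZNF562, ZNF264 and ZNF566 stand between the last junction and the array.

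ZNF274, which binds the 3′ ends of other ZNF genes and recruits the histone methyltransferase SETDB1 there, had a peak of 17.8 in replicate 1 and 12.4 in replicate 2 in the third of its 5 fingers. Every 31-base word at its summits occurred once in the genome. In ZNF17 the summit lay at the first of 18 fingers, with values of 16.3 and 10.9, likewise at a unique place.

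The other strong peaks in the array lie in sequence that the genome holds more than once. ZNF561 had the highest value of any member in replicate 1, 22.8, against 9.57 in replicate 2, and 65 of 71 words at its replicate 1 summit were unique. ZNF799 had 21.2 and 7.87 at finger 14 of 15, with 10 of 71 unique words. ZNF417 had 19.1 and 8.60 at its first finger with 31 of 71, and ZNF443 had 12.1 and 12.7 at finger 15 of 16 with 28 of 71. Placed by their summits alone, 6 of the 12 strongest shared peaks lay in the array and 4 before it. Another lay between the last finger and the stop codon (ZNF628, 13.2 and 13.8) and 1 in the 3′ UTR (ZNF607, 15.2 and 11.0). ZNF562 (56 of 71) and ZNF607 (38 of 71) were not unique either. In 7 of the 12 the window of the replicate 1 summit was not unique. Some of the 12 peaks were wide, so a summit does not confine them to a single part. The ZNF628 peak spanned 3193 and 3166 nt, near the 3287 nt of its last exon. ZNF443 (1587 and 1536 nt), ZNF417 (1192 and 1403 nt) and ZNF121 (1180 and 1184 nt) were also wide. The median width of the members' peaks was 321 nt in replicate 1 and 344 nt in replicate 2.

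The number of peaks per member ran from 0 to 6 in replicate 1 and from 0 to 4 in replicate 2, and 95 and 68 members had 2 or more. ZNF324 and ZNF780B had the most, with 5 peaks in replicate 1 and 4 in replicate 2 each. In ZNF780B the peaks were spread from the stretch before the array through fingers 12 and 20 to the 3′ UTR, with the strongest at finger 12 (11.0 in replicate 1 and 9.43 in replicate 2). ZNF525 had its 8 peaks in the 3′ UTR alone, with values of 3.07 to 10.8. ZNF446 had 5 and 3 peaks and ZNF792 6 and 2. The number of fingers was also compared. Of members with under 10 fingers 35 of 63 had a peak in both replicates, as had 50 of 108 with 10 to 14, 29 of 58 with 15 to 19 and 10 of 17 with 20 or more, with intervals that overlapped. The last group split by cluster, with 0 of 4 from ZNF101 to ZNF254 (ZNF208, ZNF729, ZNF99 and ZNF91) and 10 of 13 elsewhere.

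The ratio of replicate 1 to replicate 2 was described for the strongest shared pair of each member, relative to the median log2 ratio of 0.40 over all pairs. ZNF554 had the largest log2 ratio, 1.92, from values of 13.5 and 3.55. It was followed by ZNF574 (18.7 and 5.17), ZNF77 (17.1 and 5.23), ZNF44 (15.6 and 5.14) and ZNF799. In ZNF554 and ZNF574 1 wide peak of replicate 1 faced 2 peaks of replicate 2, and the ratio compares it with 1 of them. The opposite end was led by ZNF266, with 6.17 and 18.04, followed by ZNF564 (6.06 and 13.9), the pair ZNF227 and ZNF235, and ZNF181 (5.34 and 10.4). ZNF266 had another peak in replicate 1, of 12.9, whose summit lay nearer to the 18.04 summit of replicate 2. In ZNF564 the paired summits lay 533 bp apart, and a stronger peak of replicate 1, of 10.3, was left without a pair. ZNF227 and ZNF235 lie on opposite strands and have overlapping exons at 1 peak (3.22 and 7.06), so its gene is uncertain. Summits in exons of more than 1 gene made up 9.80% of the members' peaks in replicate 1 and 10.2% in replicate 2.

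Members with a known role were looked up. Of 10 listed, 3 had a peak in both replicates, 1 in replicate 1 alone and 6 in neither, beside 33.4% in both over all protein-coding genes and 50.4% over the members. ZNF224, a transcriptional repressor of the aldolase A gene, had 4 and 3 peaks, with the strongest, 10.8 and 7.28, at finger 9 of 18. ZNF473, which takes part in the 3′-end processing of histone pre-mRNA, had 4 and 3 peaks, the strongest 6.92 and 7.28 at finger 6 of 18. ZNF274 is described above. ZNF558 had 3 peaks in replicate 1, of 5.67 to 10.7, all in the 3′ UTR, and 0 in replicate 2. No peak was listed for ZNF91 and ZNF93, which silence SVA and LINE-1 retrotransposons, for the imprinted gene ZNF331, for the BRCA1 partner ZNF350, for the TRAF6 inhibitor ZNF675 or for ZNF568. ZNF91, ZNF93 and ZNF675 lie in the cluster from ZNF101 to ZNF254, where 4 of 37 members had a peak in both replicates. ZNF568 is also the longest member without a peak, with 18608 nt of exons, ahead of ZNF793, ZNF208, ZNF577 and ZNF382.

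Finally, the co-repressor genes that KRAB zinc finger proteins work with were counted. Of 14 listed, 7 had an exonic peak in both replicates, 2 in replicate 1 alone and 5 in neither, beside 33.4% in both and 43.1% in either over all protein-coding genes. TASOR, the scaffold of the HUSH silencing complex, had the strongest, 19.8 in replicate 1 and 11.1 in replicate 2. SETDB1, which methylates histone H3 lysine 9, had 16.01 and 9.32, and its partner ATF7IP 8.60 and 8.40. Peaks in both replicates were also found in MPHOSPH8 (7.21 and 4.14), MORC2 (7.18 and 4.93) and UHRF1 (9.18 and 5.56). CHD3 had 12.1 in replicate 1 but only 1.76 in replicate 2. CHD4 (3.39) and PPHLN1 (4.59) had peaks in replicate 1 alone. The KRAB-binding scaffold TRIM28, the HP1 genes CBX1, CBX3 and CBX5, and the DNA methyltransferase DNMT1 had none in either list.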

How the data were processed

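The data were meRIP-seq peaks of OE-19 cells, from the 2 samples labelled as m6A immunoprecipitation. Inputs entered no comparison. The labels describe UV-fixed cells and a directional library kit. The submitters' processing notes name fastp, HISAT2 and MACS2 with hg38, whereas the study's methods name TopHat2 and MACS2 with default settings. Releases, the handling of reads that map to several places and whether the input served as the control are not given in the sources used here. The authors deposited for every peak a fold enrichment (a ratio to the caller's background), −log10 of p and of q, a score that was not used, and the summit position, which the authors gave as an offset. The highest q was 0.0491 and 0.0497, so the lists end at the default of 0.05.

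Summits were assigned to every protein-coding gene of GENCODE version 44 with an exon there, since the lists carry no strand (bedtools 2.31.1). For position, motif and fold enrichment, a summit in exons of more than 1 member counts once for each. In shares of the 296 and 215 peaks it counts once. Regions were set on the transcript with the longest CDS, which left out 15 and 10 of the members' summits. Length expectations are the share of each summit's transcript. Like-length shares used 20 quantile bins of exonic length. Fingers were found as C, 2 to 4 residues, C, 12 residues, H, 3 to 5 residues, H. Words of 31 bases were counted on both strands of hg38. The code was tested on simulated summits.

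Named were the 12 members with the strongest shared peak, the 5 with the most peaks, the 5 longest without a peak, the 5 largest and 5 smallest replicate ratios, and 10 with known roles. Other names were chosen after their values were seen. The members and lists were chosen with earlier results of these data known. Alternatives were stricter q or fold enrichment, equal list lengths, peak midpoints, other transcripts, windows, overlaps and length measures, and each replicate left out. Unique windows and the omission of the cluster from ZNF101 to ZNF254 were added after the data were seen. Scripts ran under Python 3.11.15 with pandas 2.3.3, numpy 2.4.6, matplotlib 3.10.9 and scipy 1.17.1.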

Additional observations from a re-analysis of the deposited data

Results flagged for a closer look

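Peaks outside the exons of the members were not part of the comparisons above. In the introns of member genes 28 summits lay in replicate 1, in 23 members, and 16 in replicate 2, in 14 members. Of these 15 (53.6%) and 11 (68.8%) overlapped a peak of the other replicate, and their median fold enrichment was 6.01 and 5.89. No input list was analysed here, so no background for introns could be set beside them.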

How the results depend on the processing

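Of 284 values recomputed under the alternatives, 239 were labelled unchanged, and 2 changed sign. Equal list lengths cut replicate 1 to the length of replicate 2. Values from replicate 2 alone thus could not change there, yet they count among the 239. Unchanged meant within the counting interval or spread of the reported value, except for counts of members, where a wider rule was used. By that rule 85 members with unique windows and 103 at a fold enrichment of 5 or more counted as unchanged from 124 in both replicates. With unique summit windows only, an alternative added after seeing the data, the gap between members and genes of like length was −0.17 points in both replicates and −2.44 in replicate 1, both reversed, 2.997 in replicate 2 and 0.733 in either. This filter removed more of the members' summits than of other genes' summits. The finger share of last-exon CDS summits was then 54.5% and 55.3%, and the shared portion 57.2% and 81.9%. Both lists were filtered, so a kept peak whose partner was left out counted as not shared. How much of either fall came from the filter itself was not tested. Without the cluster from ZNF101 to ZNF254 the gap was 19.5 points in both, 14.9 in either, 14.7 in replicate 1 and 19.7 in replicate 2. The cluster was picked for its low share, so the direction of this change was fixed in advance. With matching on last exon length the gaps were 6.62, 3.92, 4.02 and 6.53 points. A fold enrichment of 5 or more gave gaps of 20.2, 18.9, 17.5 and 21.6 points in the same order, like-length shares of 21.6%, 35.96%, 34.5% and 23.1%, a last-exon share of 97.96% in replicate 2, median enrichments of 7.90 and 7.10 by construction, and shared portions of 56.0% and 86%. With equal numbers of peaks the median in replicate 1 was 7.83 and the shared portions 73.0% and 85.6%. At −log10 q of 5 or more the medians were 7.90 and 6.71, and over the strongest peak of each member 9.21 and 7.40. Overlap of 50% of both peaks gave 50% and 69.8% shared, and summits within 100 bp 47.6% and 66.5%. GGAC was found at 20.6% and 22.4% of summits within 25 nt and 58.0% and 50.95% within 100 nt. A stop codon window of 100 nt held 9.79% and 9.52%, and by midpoints the finger share was 73.4% in replicate 2. Leaving out each replicate in turn gave 126 to 137 members for both, like-length shares of 38.9% to 48.3%, and gaps of 7.38 to 12.3 points. Results of a single list have no such alternative. The last-exon, CDS, 5′ UTR and 3′ UTR shares in replicate 1 stayed within their intervals under every alternative run. No paired analysis was possible because no list of the input samples was analysed. The number of peaks limits precision, and expression was not matched.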
